A study of Homo sapiens with 3 samples.

Results

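The genes examined here were 10 enzymes of drug metabolism, CYP3A5, CYP2S1, CYP1A1, CES1, CES2, UGT1A6, UGT2A3, GSTA1, GSTP1 and SULT1E1, chosen by gene symbol among the 33538 genes of the count tables. All 10 were found, each as 1 row, in a single-cell RNA-seq study of a co-culture of Caco-2 and HT29, colorectal carcinoma cell lines that form an epithelium when grown on a permeable membrane. Caco-2 at passage 8 and HT29 at passage 13 were seeded 9:1 into Transwell inserts and harvested on day 23. There were 2 untreated control libraries and 1 library whose apical chamber received 1 ng/ml lipopolysaccharide (LPS) of Escherichia coli O111:B4 on day 22 for 24 h. Each library was 1 deposited sample, and the labels do not say whether the Transwells were set up on separate days. Both lines are tumor lines, so the levels below are those of carcinoma cells under one culture condition and not of healthy gut.

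These enzymes carry out the 2 steps by which cells dispose of drugs and other foreign compounds. In the first, cytochromes P450 (CYP) oxidize the compound and carboxylesterases (CES) hydrolyze its ester bonds. In the second, UDP-glucuronosyltransferases (UGT), glutathione S-transferases (GST) and sulfotransferases (SULT) attach a polar group that makes the product easier to excrete. Enterocytes of the gut wall express many of them and remove part of an oral dose before it reaches the liver, and Caco-2 monolayers are widely used to predict that uptake.

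Promoter sequences of 6 members are shown first, because the single-cell data placed these genes at the extremes: CYP3A5 was higher in HT29-line cells, CYP1A1 was nearly limited to Caco-2-line cells, GSTA1, SULT1E1 and UGT2A3 were higher in enterocyte-like cells, and GSTP1 was abundant in every cluster. Each sequence holds the 250 bases before the RefSeq start of the gene, written 5′ to 3′ on the strand of the gene (GRCh38.p14), with capitals at matches to 4 short motifs searched on both strands. The motifs were GCGTG, the core of the xenobiotic response element bound by the aryl hydrocarbon receptor, TGACNNNGC, the core of the antioxidant response element, the TATA box as TATAAA, and the box named CCAAT after its letters. No matches overlapped in the sequences printed.
CYP3A5, chr7:99679997-99680246, minus strand: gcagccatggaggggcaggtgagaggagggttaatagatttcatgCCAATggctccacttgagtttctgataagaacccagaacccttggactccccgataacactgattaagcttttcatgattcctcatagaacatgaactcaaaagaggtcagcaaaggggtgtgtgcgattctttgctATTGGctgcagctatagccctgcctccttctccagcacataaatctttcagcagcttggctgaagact
CYP1A1, chr15:74725529-74725778, minus strand: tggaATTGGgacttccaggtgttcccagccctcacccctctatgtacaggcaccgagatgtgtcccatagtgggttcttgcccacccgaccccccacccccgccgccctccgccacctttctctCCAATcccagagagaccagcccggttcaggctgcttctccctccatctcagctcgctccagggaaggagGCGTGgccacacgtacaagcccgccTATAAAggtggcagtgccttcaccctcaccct
GSTA1, chr6:52803817-52804066, minus strand: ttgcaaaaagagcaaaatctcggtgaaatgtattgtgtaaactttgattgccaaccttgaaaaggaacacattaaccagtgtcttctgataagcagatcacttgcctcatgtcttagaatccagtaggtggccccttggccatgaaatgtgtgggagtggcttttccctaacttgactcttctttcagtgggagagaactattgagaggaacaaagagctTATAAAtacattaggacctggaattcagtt
SULT1E1, chr4:69860146-69860395, minus strand: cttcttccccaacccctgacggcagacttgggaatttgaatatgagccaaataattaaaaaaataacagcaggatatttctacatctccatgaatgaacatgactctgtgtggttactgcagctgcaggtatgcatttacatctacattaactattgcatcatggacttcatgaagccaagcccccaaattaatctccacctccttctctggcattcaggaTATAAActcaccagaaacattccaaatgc
UGT2A3, chr4:68951805-68952054, minus strand: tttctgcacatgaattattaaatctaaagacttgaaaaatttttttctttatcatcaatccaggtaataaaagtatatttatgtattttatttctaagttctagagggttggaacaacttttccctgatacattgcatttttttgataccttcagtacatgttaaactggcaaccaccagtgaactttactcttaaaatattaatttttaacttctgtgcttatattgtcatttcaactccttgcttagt
GSTP1, chr11:67583562-67583811, plus strand: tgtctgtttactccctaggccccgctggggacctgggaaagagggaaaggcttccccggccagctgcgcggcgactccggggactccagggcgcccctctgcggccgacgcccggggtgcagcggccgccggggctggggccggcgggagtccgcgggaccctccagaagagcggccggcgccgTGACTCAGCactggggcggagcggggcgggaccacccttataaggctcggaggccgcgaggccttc

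Among 35116 RefSeq promoters of the same length, 32.2% held GCGTG and 10.9% held TGACNNNGC. The TATA box was found in 10.7% and the CCAAT box in 32.0%. The CYP1A1 window held GCGTG 57 bases before the start and TATAAA at 32 bases. TATAAA was found at 30 bases in GSTA1 and 29 bases in SULT1E1, and the CYP3A5 window held the CCAAT box but not TATAAA. The GSTP1 window held TGACNNNGC at 66 bases and had a GC content of 74.8%, against a median of 58% over all promoters, while that of UGT2A3 had 28% and none of the 4 motifs. GCGTG was not limited to CYP1A1. Of the windows not printed, that of CES2 held it at 238, 77, 29 and 24 bases. A window of UGT1A6 held it at 200 bases, and another of that gene held TGACNNNGC at 98 bases. These matches describe letters and were not tested as binding sites. RefSeq promoters were matched for 9 members, all but CES1.

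After the filters on cells, 14472 cells remained, 4633 in control 1, 4989 in control 2 and 4850 in the LPS library, with a median of 5452, 4101 and 3572.5 unique molecular identifiers (UMIs, one per captured RNA molecule) per cell. The libraries shared between 9 and 11 barcodes, none with the same counts. Each cell was given a line of origin from genes that separate the 2 lines in monoculture, with all genes of drug metabolism left out of the score. This placed 3952, 3919 and 3925 cells in the Caco-2 line and 653, 989 and 854 cells in the HT29 line, in the order control 1, control 2 and LPS, and 28, 81 and 71 cells stayed between. Levels are given as counts per 1000000 UMIs (CPM), after adding up all cells of one group within a library. The 3′ assay counts 1 UMI per molecule whatever its length, so CPM is a level in molecules that needs no scaling by length. Levels of CYP3A5, GSTA1 and UGT1A6 depend also on how reads shared with related genes were assigned, described with each, and their place in an order of genes is uncertain to that extent. Free RNA and mixed droplets could set a floor under each line, but it was not measured directly. It is read below from markers of the other line, which may also hold the line's own expression. Single enterocyte markers in HT29-line cells ran from 2.0% to 52.4% of their Caco-2-line level over the libraries. The summed level of 7 HT29 markers in Caco-2-line cells was 1.94%, 2.51% and 1.70% of their level in HT29-line cells. That of the 9 enterocyte markers in HT29-line cells was 5.38%, 7.20% and 9.44% of their level in Caco-2-line cells.

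The levels of the members spanned more than 3 orders of magnitude, in the Caco-2 line only with UGT1A6 counted in. In the Caco-2 line the order was GSTP1 at 1985 CPM ± 320 (SD, n = 3 libraries), CES1 at 60.4 ± 4.44, GSTA1 at 58.0 ± 27.2, CES2 at 31.2 ± 4.09, CYP2S1 at 21.8 ± 4.79, UGT2A3 at 20.4 ± 6.43, CYP1A1 at 11.4 ± 2.50, CYP3A5 at 7.02 ± 1.23, SULT1E1 at 6.49 ± 1.47 and UGT1A6 at 0.649 ± 0.0217. The neighbors CES1 and GSTA1, CYP2S1 and UGT2A3, and CYP3A5 and SULT1E1 differed by less than their spread over libraries. In the HT29 line GSTP1 was again highest, at 1292 CPM ± 193, followed by CYP3A5 at 230 ± 34.8 and CES2 at 24.6 ± 1.83. CYP2S1 was at 9.58 CPM ± 3.43 there, and the other 6 members were at 5.28 CPM or lower.

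**Figure D1:**
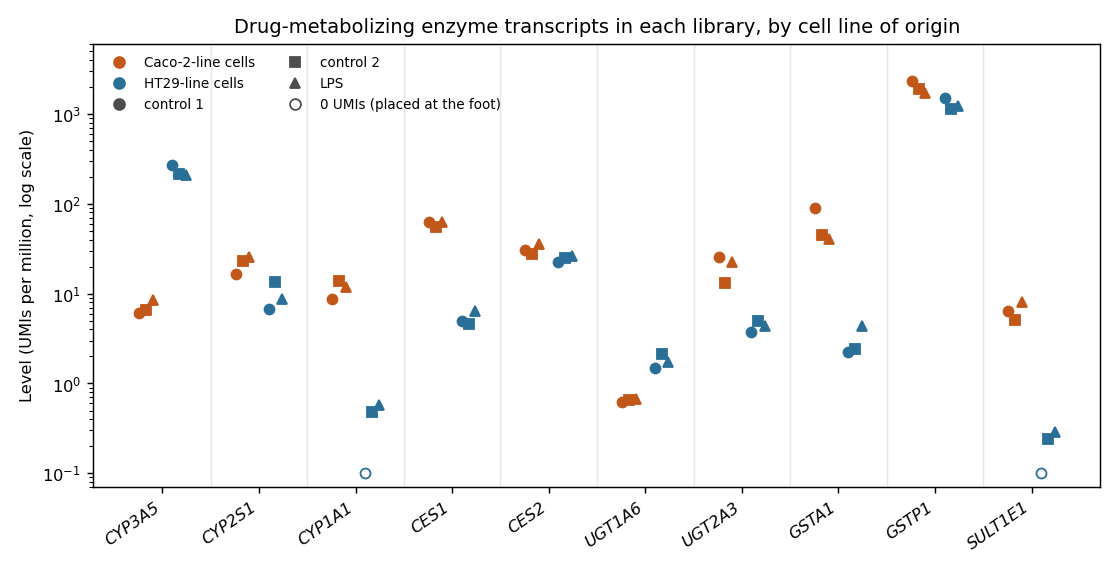
Level of each of the 10 enzymes in CPM (log scale) in Caco-2-line cells (orange) and HT29-line cells (blue) of control 1 (circles), control 2 (squares) and the LPS library (triangles); open symbols at the foot stand for 0 UMIs. CYP3A5 and UGT1A6 are higher in the HT29 line in all 3 libraries, and the other 8 genes are higher in the Caco-2 line in all 3.

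The lines were compared first, to ask in which of them the RNA of each enzyme was at the higher level. These levels are per UMI of a line and do not give a line's share of the culture. Caco-2-line cells made up 85.3%, 78.6% and 80.9% of kept cells in control 1, control 2 and LPS. CYP3A5 was about 31.7-fold higher in the HT29 line. SULT1E1, CYP1A1, GSTA1, CES1 and UGT2A3 were higher in the Caco-2 line, by 4.78-fold or more. CYP2S1, GSTP1 and CES2 differed less, by 2.36-fold, 1.61-fold and 1.32-fold in favor of the Caco-2 line. UGT1A6 was assigned few UMIs in both. In edgeR's quasi-likelihood test on sums per line and library, with the library as a block, all 10 members passed a Benjamini-Hochberg adjusted p of 0.05, 8 of them higher in the Caco-2 line and 2 in the HT29 line. The lines differ widely: 73.1% of the 14030 genes tested passed, 38% higher in the Caco-2 line and 35.1% higher in the HT29 line, so passing is not particular to these enzymes.

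CYP3A5 (ENSG00000106258, chromosome 7, 99648194 to 99679996, minus strand) encodes a CYP3A enzyme that oxidizes a large share of drugs and is a main extrahepatic form. In HT29-line cells it was at 271 CPM in control 1, 212 in control 2 and 209 in the LPS library, and in Caco-2-line cells at 6.05, 6.62 and 8.41. The ranges were far apart, and the log2 fold change was -4.99 ± 0.13 (SE, adjusted p = 1.0e-18, edgeR), a fall from HT29 to Caco-2 exceeded by 1.58% of the genes tested. A UMI was seen in 66.6%, 50.2% and 48.4% of HT29-line cells and in 2.99%, 3.09% and 2.73% of Caco-2-line cells, at median depths of 5345, 3730 and 3535 against 5460.5, 4210 and 3572 UMIs per cell. Each cell was then thinned to 1500 UMIs and the libraries were pooled. The shares were 28.5% of HT29-line cells (exact binomial 95% interval 26.7 to 30.3%) and 1.08% of Caco-2-line cells (0.898 to 1.28%). These intervals cover counting error only. By library, CYP3A5 was seen in 26.5% to 30.9% of thinned HT29-line cells and 0.936% to 1.22% of thinned Caco-2-line cells. Its level in the Caco-2 line was 2.23%, 3.12% and 4.03% of that in the HT29 line, close to the floor of the HT29 markers in the controls and above it in the LPS library. Within the last 1000 bases of its transcripts a run of 112 bases was identical to CYP3A4. Reads from this run may be left uncounted or assigned to either gene. CYP3A4 itself had 3 UMIs in all kept cells.

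CYP1A1 (ENSG00000140465, chromosome 15, 74719542 to 74725536, minus strand) is the classic target of the aryl hydrocarbon receptor and oxidizes polycyclic aromatic compounds. It was at 8.82, 13.8 and 11.7 CPM in Caco-2-line cells of control 1, control 2 and LPS, from 226, 273 and 194 UMIs. HT29-line cells gave 0, 2 and 2 UMIs. The Caco-2 level was at least 11.8-fold higher in control 1 (against a floor of 3 counts), 28.9-fold higher in control 2 (95% counting interval 7.91 to 240) and 20.4-fold higher in the LPS library (5.56 to 169). The HT29 counts were at or below what the floor of the enterocyte markers would give. A count of 0 in 653 cells allows a share of up to 0.459% of cells with a UMI. These intervals and limits cover counting error only.

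SULT1E1 (ENSG00000109193, chromosome 4, 69841212 to 69860145, minus strand), the estrogen sulfotransferase, behaved alike between the lines, with 165, 100 and 132 UMIs in the Caco-2 line and 0, 1 and 1 in the HT29 line. Its level in Caco-2-line cells was 6.44, 5.05 and 7.98 CPM, at least 8.63-fold above the HT29 line in control 1 and 21.1-fold (3.71 to 843) and 27.7-fold (4.89 to 1103) above it in control 2 and LPS. With no doublets removed the log2 fold change between the lines went from 5.21 to 3.56, without control 1 it was 4.61, and with each cell given the line of its cluster it was 6.22. A protein-coding gene on the same strand, ENSG00000284695, overlaps its 3′ end, and reads there may be assigned to either or left uncounted.

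GSTA1 (ENSG00000243955, chromosome 6, 52791371 to 52803860, minus strand), an alpha-class transferase that also conjugates the drug busulfan, was at 89.4, 44.5 and 40.3 CPM in Caco-2-line cells and at 2.24, 2.39 and 4.32 CPM in HT29-line cells. Control 1 stood apart from the other libraries, with 2.07 times the level of control 2 over all cells. The log2 fold change was 4.36 ± 0.22 (adjusted p = 7.2e-14), and the HT29 level was 2.50%, 5.37% and 10.7% of that in the Caco-2 line, around the floor of the enterocyte markers. Without control 1 the log2 fold change was 3.75, and with no doublets removed it was 3.26. Its transcripts share a run of up to 109 bases with GSTA2, which was itself at 74.8 CPM in the Caco-2 line and 3.36 CPM in the HT29 line, so the split of UMIs between them is uncertain.

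CES1 (ENSG00000198848, chromosome 16, 55802851 to 55833337, minus strand) is the main carboxylesterase of liver, and CES2 (ENSG00000172831, chromosome 16, 66934444 to 66945096, plus strand) that of the intestine. CES1 was at 62.5, 55.3 and 63.3 CPM in Caco-2-line cells and at 4.97, 4.54 and 6.34 CPM in HT29-line cells, a log2 fold change of 3.59 ± 0.15 (adjusted p = 3.4e-15). CES2 was at 30.5, 27.5 and 35.6 CPM against 22.6, 25.1 and 26.2, so that the ranges were adjacent without overlap. Its log2 fold change of 0.40 ± 0.12 had an adjusted p of 0.0043 with edgeR and 0.053 with DESeq2. The pair thus differed in how its levels compared between the lines. The HT29 line held CES1 at 7.96%, 8.21% and 10.0% of the Caco-2 level and CES2 at 74.1%, 91.1% and 73.6%. The CES1 shares were just above the floor of the enterocyte markers in each library. A long noncoding RNA on the same strand covers the 3′ end of CES2 in the annotation used here and has no row in the count tables.

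Of the glucuronosyltransferases, UGT2A3 (ENSG00000135220, chromosome 4, 68928463 to 68951804, minus strand), which acts on bile acids, was at 25.5, 13.2 and 22.5 CPM in Caco-2-line cells and at 3.73, 5.02 and 4.32 CPM in HT29-line cells. The log2 fold change was 2.26 ± 0.21 (adjusted p = 3.5e-09), and the HT29 level was 14.6%, 38.0% and 19.2% of the Caco-2 level, above the summed floor of the enterocyte markers in each library and within the 2.0% to 52.4% of single markers. UGT1A6 (ENSG00000167165, chromosome 2, 233691607 to 233773300, plus strand), which conjugates small phenols, had 61 UMIs in all kept cells. It was at 0.624, 0.657 and 0.665 CPM in the Caco-2 line and at 1.49, 2.15 and 1.73 CPM in the HT29 line, from 6 to 9 UMIs per library in the latter. The log2 fold change of -1.38 ± 0.44 had an adjusted p of 0.0083 with edgeR, 0.097 with DESeq2 and 0.063 without control 2. All 9 UGT1A genes end at the same base and share their last exons, where this assay reads. UMIs of this locus cannot be assigned firmly to a single gene, and reads in the shared exons may be left uncounted. The UMIs counted for the 9 genes summed to 1.25, 2.12 and 1.45 CPM in the Caco-2 line and 4.23, 5.49 and 5.76 CPM in the HT29 line. These sums may understate the locus.

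GSTP1 (ENSG00000084207, chromosome 11, 67583742 to 67586656, plus strand), the pi-class transferase common in epithelia and tumors, was found in 95.6% to 99.4% of Caco-2-line cells and 89.2% to 96.3% of HT29-line cells. Its level was 2341, 1893 and 1721 CPM in the Caco-2 line and 1507, 1132 and 1236 CPM in the HT29 line, and the log2 fold change was 0.68 ± 0.07 (adjusted p = 9.0e-09). CYP2S1 (ENSG00000167600, chromosome 19, 41193210 to 41207539, plus strand), a P450 of epithelial tissues, was at 16.5, 23.2 and 25.8 CPM against 6.71, 13.4 and 8.64, a log2 fold change of 1.24 ± 0.16 (adjusted p = 5.9e-07).

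Enterocyte differentiation was examined next, within the Caco-2 line alone. Clusters were made without the genes of drug metabolism and named from fixed markers. The names were enterocyte-like (ECLC), stem-like (ISCLC), transit-amplifying-like (TALC), goblet-like (GCLC), enteroendocrine-like (EECLC), expressing fetal genes (FGEC), or U-HT29, the authors' name for undifferentiated HT29. The name U-HT29 rested here on raised TCN1, LCN2, CD44, LYZ, KLK10, ANXA1 and CEACAM7, and a lack of differentiation was not tested. The Caco-2-line cells named ECLC numbered 776, 641 and 612, and those named ISCLC or TALC 1260, 1293 and 1354. The other 1916, 1985 and 1959 Caco-2-line cells were in neither group. These classes are not those of the authors, who named a larger share of cells ECLC and a smaller share ISCLC. DKK1 and ANKRD1, among the leading genes of the ISCLC cluster here, were genes of a TALC group there. The ECLC cluster held all 9 of its markers at a raised level, APOA4 among those that led it. Against ISCLC and TALC, GSTA1, SULT1E1 and UGT2A3 were most raised in ECLC, with CYP2S1, CES1, CES2 and CYP3A5 raised less. CYP1A1 and GSTP1 did not pass the test. CYP3A5 was higher in the remaining Caco-2-line cells than in ECLC. In all, 7 of the 9 members tested were higher in ECLC and 0 were lower with edgeR and with DESeq2, and none was lower at an unadjusted p of 0.05, against 32.2% and 31.7% of the 12402 genes tested, or 63.9% in either direction. UGT1A6 had too few UMIs to be tested.

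**Figure D2:**
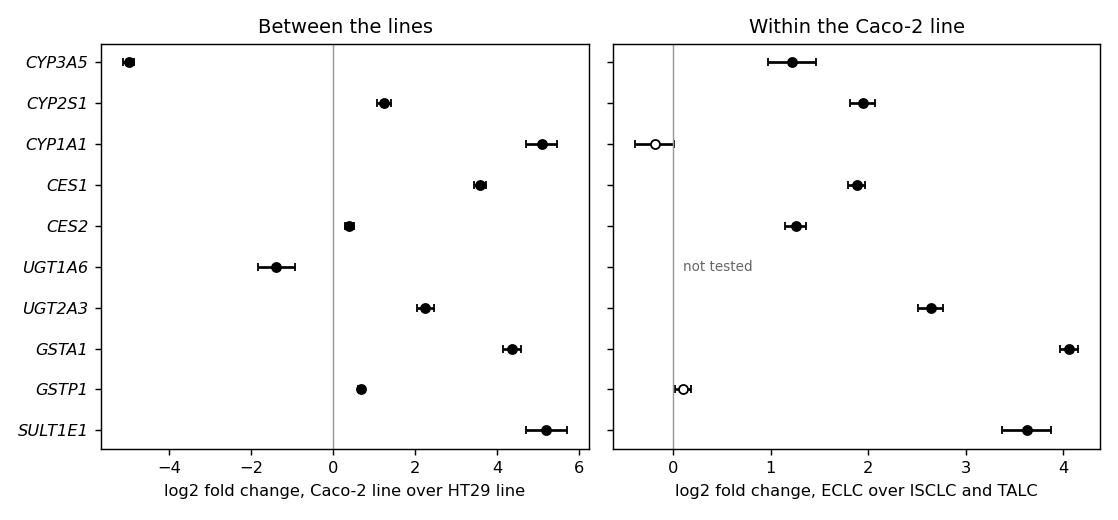
Log2 fold change with its SE (edgeR) of each member between the lines (left, positive values higher in the Caco-2 line) and between ECLC and the stem- and transit-amplifying-like cells of the Caco-2 line (right, positive values higher in ECLC). Filled points passed an adjusted p of 0.05. On the left 8 members lie to the right of 0 and 2 to the left, and on the right 7 filled points lie to the right of 0.

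GSTA1 had the largest difference between ECLC and the stem- and transit-amplifying-like cells. In ECLC it was at 307, 195 and 138 CPM in control 1, control 2 and LPS, and in ISCLC and TALC together at 25, 11 and 12.2 CPM. Every ECLC level was far above every level in the other group, and the log2 fold change was 4.06 ± 0.10 (adjusted p = 6.3e-32), with 0.863% of genes more raised. It was 3.03 with clusters from log-normalized values. ECLC made up 19.6%, 16.4% and 15.6% of the Caco-2-line cells and held 62.4%, 67.4% and 51.8% of their GSTA1 UMIs. ECLC had lower median depths, 5196.5, 4008 and 3584 UMIs per cell against 6094, 4705 and 3853.

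SULT1E1 was at 13.3, 11.8 and 19.6 CPM in ECLC and at 1.56, 1.25 and 1.47 CPM in ISCLC and TALC, a log2 fold change of 3.63 ± 0.25 (adjusted p = 4.0e-16). The lower levels rested on 14, 9 and 9 UMIs, and the fold change was 1.69 with clusters from log-normalized values, 2.61 with cells ranked by enterocyte markers and 2.15 with the cell minima of control 1 in every library. UGT2A3 was at 56.3, 29.2 and 56.5 CPM against 10.9, 7.78 and 9.13, a log2 fold change of 2.64 ± 0.13 (adjusted p = 4.5e-21), and its ECLC level in control 2 was well below that in the other libraries. CES1 rose from 43.7, 40.1 and 37.5 CPM to 118, 104 and 147 CPM, and CES2 from 23.9, 25.8 and 32.9 to 55.4, 44.3 and 56.1. Their log2 fold changes were 1.88 ± 0.09 and 1.25 ± 0.11 (adjusted p = 1.1e-21 and 2.2e-13). The scaling of edgeR shifted fold changes in this comparison toward ECLC against the CPM printed. For UGT2A3, CES2 and CYP2S1 the fold change exceeded the ratio of the CPM in every library. CYP2S1 went from 10.5, 14 and 14.2 CPM to 25.1, 48.9 and 50.9, with control 1 lowest on both sides, and a log2 fold change of 1.94 ± 0.13 (adjusted p = 4.4e-17), or 1.21 with cells ranked by enterocyte markers and 1.36 with clusters from log-normalized values.

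CYP3A5 was low in the Caco-2 line but not evenly spread in it. Caco-2-line cells outside ECLC, ISCLC and TALC were together at 7.82, 8.69 and 9.87 CPM, above ECLC in each library, but their clusters differed. The cluster levels that follow cover all cells of a cluster, whatever their line. The unnamed cluster of 280 cells led by SPRR1B, 2.5% of them of the HT29 line, was at 32.5, 32.6 and 43.9 CPM. Its median depth, 6919 UMIs, was the highest of any cluster. That of 3465 cells led by S100A9 was at 3.56, 7.68 and 5.60 CPM, below ECLC in each library. Those led by ALB and GNRH2 were also below it in each, and that led by ITGA5 was above it only with LPS. FGEC was above ECLC in each library, at 20.8, 11.3 and 26.6 CPM, but from 8 UMIs. EECLC and the cluster led by STC1, also from 8 UMIs each, were above it in only some libraries. The part of mixed cells was not tested. ECLC was at 6.23, 8.21 and 9.61 CPM, and ISCLC and TALC together at 3.57, 3.19 and 6.03 CPM. The log2 fold change of ECLC against ISCLC and TALC was 1.22 ± 0.24 (adjusted p = 3.6e-05, edgeR), from 23 to 37 UMIs on each side per library. With cells ranked by their enterocyte markers instead of clustered, it was 0.45. As a share of the level in HT29-line cells, the ECLC levels of CYP3A5 were 2.3%, 3.87% and 4.61%. The summed HT29 markers measured the same way were lower in ECLC, at 0.530%, 1.25% and 0.723%, than in ISCLC and TALC, at 1.71%, 1.46% and 1.24%. LYZ held most of the marker UMIs in ISCLC and TALC, 302 of 379 in control 1, 134 of 230 in control 2 and 102 of 168 in LPS. Single markers went either way. The ratio of ECLC to ISCLC and TALC was 0.242, 0.812 and 0.698 for LYZ, but 1.15, 1.05 and 0 for LCN2. The share of free HT29 RNA in the ECLC level of CYP3A5 was not tested.

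CYP1A1 and GSTP1 did not follow the enterocyte pattern. CYP1A1 was at 11.4, 7.23 and 8.81 CPM in ECLC and at 10.2, 17.8 and 13.5 CPM in ISCLC and TALC, so that the libraries disagreed in direction: control 1 was slightly higher in ECLC and the others were lower. The log2 fold change was -0.19 ± 0.20 (adjusted p = 0.42). Without control 1 it was -0.72 with an adjusted p of 0.00695 (edgeR), and with cells ranked by their enterocyte markers it was -0.41 with an adjusted p of 0.023. GSTP1 was at 2233, 1756 and 1611 CPM in ECLC and at 2554, 2038 and 1851 CPM in ISCLC and TALC. Its log2 fold change after edgeR's scaling was 0.10 ± 0.08 (adjusted p = 0.26), opposite in sign to the difference in CPM. It was -0.19 with clusters from log-normalized values and 0.29 with cells ranked by enterocyte markers, both past the threshold, so no direction is given.

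**Figure D3:**
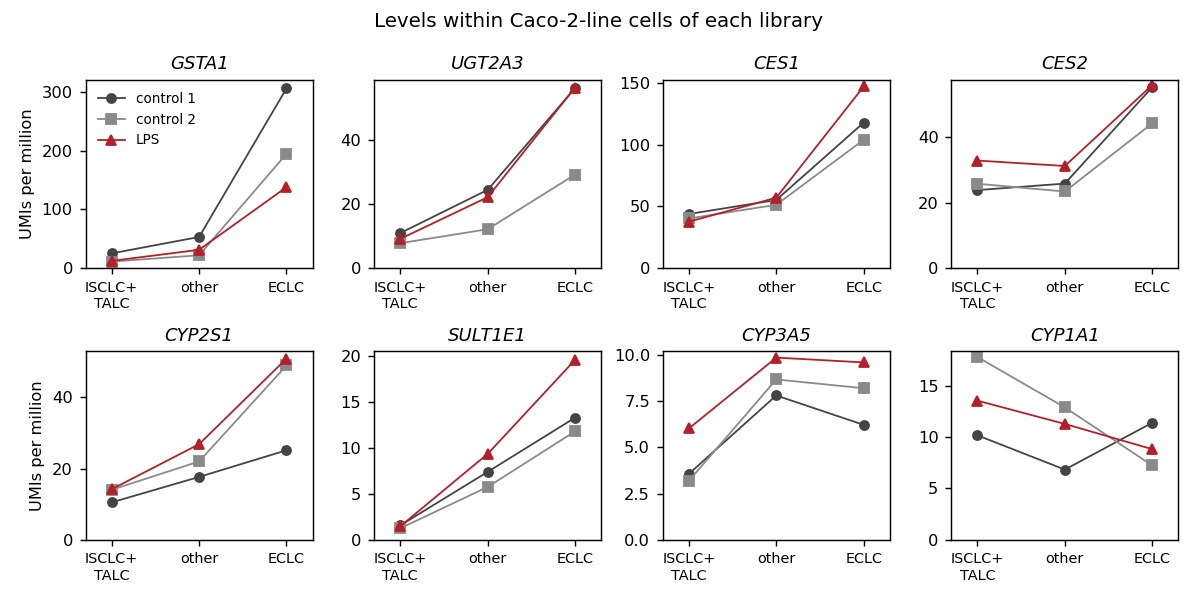
Level in CPM (linear axes that start at 0) of 8 members in Caco-2-line cells named ISCLC or TALC, other Caco-2-line cells, and ECLC, with 1 line per library. Of these groups, ECLC is highest for GSTA1, UGT2A3, CES1, CES2, CYP2S1 and SULT1E1 in all 3 libraries. The other Caco-2-line cells pool several clusters, some of them near ECLC for CES1, CES2 and UGT2A3. GSTA1 in ECLC is at 307 in control 1, 195 in control 2 and 138 in the LPS library.

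The members also differed in how their UMIs were spread over single cells. GSTA1 and CES1 had nearly the same total in Caco-2-line cells, 3838 and 3743 UMIs. The 1% of these cells with the most GSTA1 held 32.8%, 43.4% and 43.2% of its UMIs, and the same share of cells held 12.9%, 15.4% and 15.5% of those of CES1. Single cells carried up to 49 UMIs of GSTA1 and up to 15 of CES1. Within ECLC, GSTA1 was seen in 38.8%, 28.1% and 24.2% of cells and 5 or more UMIs in 12.6%, 5.46% and 2.45%. CES1 was seen in 41.0%, 31.4% and 35.5% of ECLC, and 5 or more UMIs were found in at most 1.03%. The totals within ECLC were not matched, at 1429, 594 and 345 UMIs of GSTA1 against 548, 316 and 367 of CES1. The part of this difference in the shares with 5 or more UMIs was not tested. For GSTP1, which nearly every cell carried, the top 1% held 5.58% to 5.94% of UMIs. Over the Caco-2 line, GSTA1 UMIs were thus held by the top 1% of cells to a larger share than those of CES1, in each of the 3 libraries.

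Whether the enterocyte enzymes occurred in the same cells was described after thinning each cell to 1500 UMIs. In Caco-2-line cells GSTA1 and CES1 were both seen in 53, 25 and 37 cells, where the product of their shares gives 25.6, 12.9 and 12.3. Within ECLC alone the counts were 34, 19 and 24 cells against 28.2, 14.3 and 15. GSTA1 and UGT2A3 were both seen in 17, 10 and 16 Caco-2-line cells against 9.23, 3.79 and 4.66, and within ECLC in 13, 5 and 11 against 12.2, 4.54 and 6.75. The excess over the product was thus smaller inside ECLC than over the line as a whole for both pairs. CYP1A1 and GSTA1 were both seen in 3, 3 and 4 Caco-2-line cells, close to the 3.03, 3.36 and 2.37 of the product.

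Across all 17 clusters, mean CYP3A5 was higher in the clusters mainly of HT29-line cells than in the rest. It was at 292 CPM ± 62.0, 219 ± 33.2, 201 ± 45.6 and 194 ± 14.5 (SD, n = 3 libraries) in the 4 U-HT29 clusters, and at 91.8 ± 24.2 in GCLC, a cluster in which the hormone genes SST and GCG also led. The highest level, 1055 CPM ± 167, was in a small unnamed cluster of 73 cells with XIST, NEAT1 and PADI1 among its leading genes. That cluster had a median of 2260 UMIs per cell, the lowest of any cluster, 72.6% of its cells were of the HT29 line, and GSTP1 was at its minimum there, 768 CPM ± 524. The part of depth or RNA quality in this level was not tested. Of the other clusters, an unnamed one of 62 cells led by STC1 had CYP3A5 at 46.6 CPM ± 68.4, from 8 UMIs. An unnamed cluster of 280 cells led by SPRR1B, 2.5% of them of the HT29 line, had it at 36.3 ± 6.54. In TALC, CYP3A5 was at 3.02 CPM ± 1.35, the lowest of the clusters. With clusters from log-normalized values its highest level was 1498 CPM, in an unnamed cluster of 45 cells led by XIST. With no doublets removed it was 454 CPM, in a U-HT29 cluster of 389 cells with XIST and PADI1 among its leading genes.

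GSTA1 was at 213 CPM ± 87.1 in ECLC, next in an unnamed cluster of 62 cells led by STC1, 86.4 ± 49.4, and in an unnamed cluster of 643 cells led by the liver genes ALB and AFP, 70.7 ± 39.3. The ALB and AFP cluster had the highest SULT1E1, 24.9 CPM ± 13.7, with 24.7, 11.3 and 38.7 in the 3 libraries. ECLC followed with 14.8 ± 4.09, a difference smaller than the spread. CES1 and UGT2A3 were highest in the STC1 cluster, at 274 CPM ± 46.6 and 68.4 ± 20.8, although only 87 and 22 UMIs stood behind these levels. An unnamed cluster of 623 cells led by ITGA5 was close to ECLC for CES1, 121 CPM ± 5.90 against 123 ± 22.5. It was also close for UGT2A3, 44.6 ± 22.2 against 47.2 ± 15.6, and CES2, 50.6 ± 1.03 against 51.6 ± 6.68. With clusters from log-normalized values, ECLC was highest for CES1, UGT2A3 and SULT1E1. With no doublets removed, ECLC was highest for CES1, a cluster led by ITGA5 for UGT2A3 and CES2, and that led by ALB for SULT1E1. CYP1A1 was at 17.6 CPM ± 4.24 in TALC, the highest cluster with more than 2 UMIs of it, and had 0 UMIs in GCLC and in 2 of the U-HT29 clusters. GSTP1 ranged only from 768 to 2559 CPM over all clusters.

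**Figure D4:**
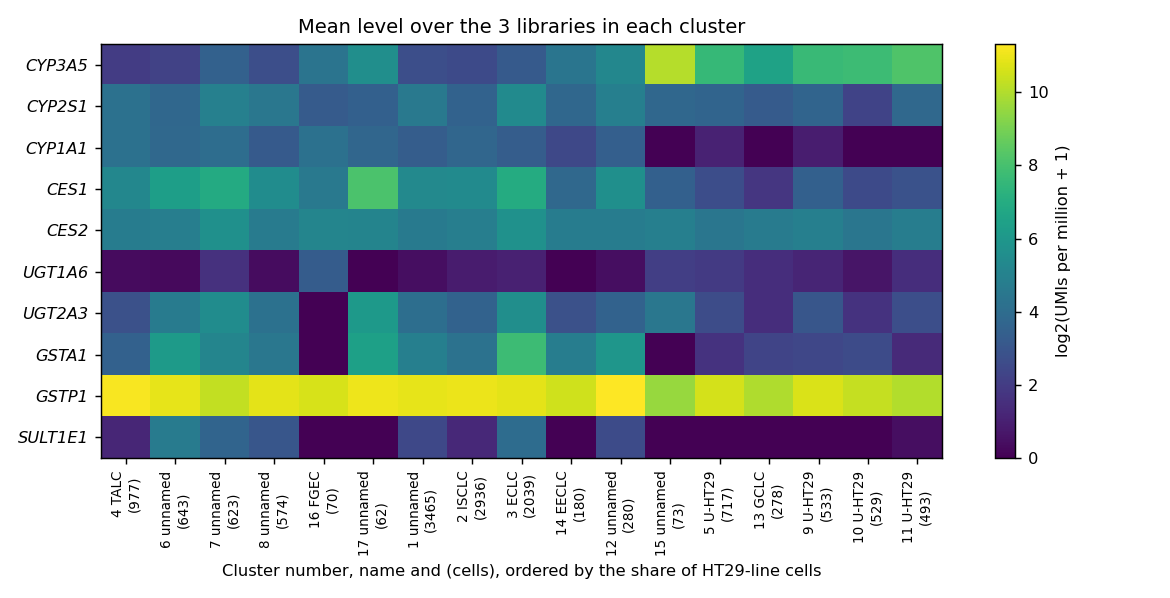
Mean level over the 3 libraries, as log2(CPM + 1), of the 10 members (rows) in the 17 clusters (columns), with the clusters ordered by their share of HT29-line cells. CYP3A5 is high in the clusters on the right, GSTA1 is brightest in ECLC at 213 CPM, and GSTP1 is at 768 or more in every cluster.

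Over the 13 clusters with 50 or more cells in every library, the genes whose mean log level ran closest to CYP3A5 were SLC44A4, GCNT3 and TBC1D17, with Pearson r of 0.99 each among 8292 genes compared. For GSTA1 they were FBXL15, SERPINC1 and ANPEP (r = 0.94, 0.93 and 0.93), the last an enterocyte marker used for naming, for CES1 C1orf115, GALT and SLC37A4 (0.99, 0.98 and 0.98), and for SULT1E1 CYP27A1, AIG1 and SERPINC1 (0.95, 0.94 and 0.94). CYP1A1 ran closest to SOHLH1, APOE and NLRP2 (0.98 each), UGT2A3 to PPP2CB, DENND5B and GCH1 (0.98, 0.97 and 0.96), and CYP2S1 to CIDEC, CDH16 and IL2RG (0.94 each). CES2 had the loosest fits, 0.92 with ACSF3, and GSTP1 was at 0.96 with SMIM37. These r are the highest among the genes compared and use levels averaged over the libraries. In single libraries r was 0.60 to 0.87 for CES2 with ACSF3 and 0.63 to 0.94 for UGT2A3 with GCH1. For CYP3A5 with SLC44A4 it was 0.94 to 0.98. Among the members, CES1 ran with UGT2A3 (0.92), CYP1A1 (0.92) and SULT1E1 (0.91), and CYP3A5 ran against CYP1A1 (-0.93). These correlations are descriptions, since the clusters share libraries and fall mainly into those of the 2 lines.

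The other enzymes of drug metabolism, on lists of 142 enzymes with the members included, were read in the same tests. Of 77 other enzymes tested between the lines, 40 were higher in the Caco-2 line and 25 in the HT29 line. Of all genes tested, 38% and 35.1% were. The median log2 fold change of these enzymes was 0.35 against 0.05 over all genes. The sulfotransferase list had the highest median, 2.18, with 6 of 10 higher in the Caco-2 line and 3 lower. SULT2A1, which sulfates steroids and bile acids, was at 6.84 CPM in the Caco-2 line and 0.338 in the HT29 line, and SULT1C4 at 8.71 and 0.411. SULT2B1, a cholesterol sulfotransferase, went the other way, at 9.31 CPM in the Caco-2 line and 218 in the HT29 line (log2 fold change -4.48 ± 0.11, adjusted p = 6.1e-19).

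Among the cytochromes P450 and their partners, 7 of 15 were higher in the Caco-2 line and 6 in the HT29 line, where 38% and 35.1% of all genes tested were. CYP2C19 was at 2.10 CPM in the Caco-2 line with 1 UMI in the HT29 line. CYP1B1 was at 1.39 CPM in the Caco-2 line and 28.1 in the HT29 line (log2 fold change -4.21 ± 0.19, adjusted p = 1.5e-14). AKR1B10, an aldo-keto reductase, was at 0.323 and 17.6 CPM (log2 fold change -5.62 ± 0.26, adjusted p = 2.8e-14), GSTO2 at 1.72 and 33.6 CPM, and CES4A at 0.143 and 2.55 CPM. All 3 passed the test.

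**Figure D5:**
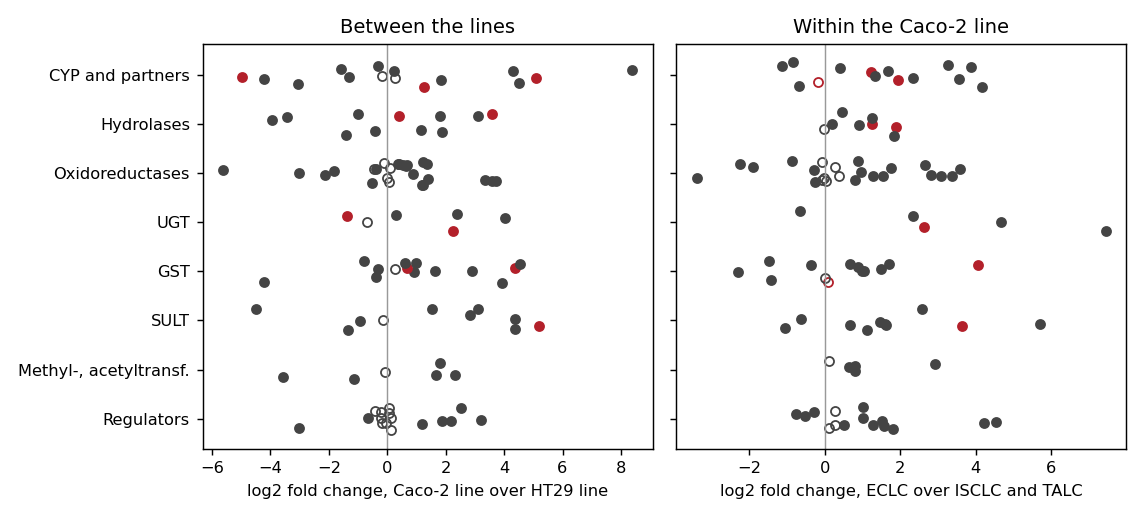
Log2 fold change (edgeR) of every tested gene of 8 lists between the lines (left, positive values higher in the Caco-2 line) and between ECLC and the stem- and transit-amplifying-like cells of the Caco-2 line (right, positive values higher in ECLC), with the 10 members in red. Filled points passed an adjusted p of 0.05. Points of most lists lie on both sides of 0 on the left, and on the right 51 of 78 enzymes are filled and to the right of 0 and 16 are filled and to its left.

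CYP1A1 and UGT1A6 belong to the targets of the aryl hydrocarbon receptor, a list of 8 genes that the receptor induces when it binds aromatic compounds. CYP1A1 was the only one of the 7 tested that was higher in the Caco-2 line, where 38% of all genes tested were. CYP1B1, AHRR, TIPARP, UGT1A6 and NQO1 were higher in the HT29 line, as were 35.1% of all genes tested. UGT1A6 did not pass with DESeq2 (adjusted p = 0.097) or without control 2 (0.063, edgeR), and its UMIs cannot be assigned firmly to it. ALDH3A1 did not pass (0.39 ± 0.30, adjusted p = 0.24). TIPARP was at 11.5, 12 and 12.9 CPM in Caco-2-line cells and at 53.0, 60.4 and 47.2 CPM in HT29-line cells, a log2 fold change of -2.08 ± 0.12 (adjusted p = 5.8e-13). AHRR, the receptor's repressor, was at 0.397 CPM in the Caco-2 line and 3.23 in the HT29 line (-3.03 ± 0.45, adjusted p = 3.2e-06). NQO1 differed least, 143 against 197 CPM (-0.39 ± 0.09, adjusted p = 0.00058). CYP1A2 had 0 UMIs in either line. The receptor gene AHR was itself higher in the HT29 line, 21.8 against 35.7 CPM (-0.66 ± 0.11, adjusted p = 2.1e-05), and its partner ARNT was at 9.67 and 9.81 CPM (adjusted p = 0.82). These targets differed in direction between the lines, as genes did over all those tested, and the activity of the receptor was not tested.

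Of 16 tested regulators of these enzymes, 5 were higher in the Caco-2 line and 2 in the HT29 line, against the 38% and 35.1% of all genes tested, with a median log2 fold change of 0.05 against 0.05 over all genes. Those higher in the Caco-2 line included the intestinal and hepatic factors CDX2 (97.6 against 11.3 CPM) and HNF4A (131 against 29.8), the receptor NR1I3 (8.54 against 1.53) and the bile acid receptor NR1H4 (4.74 against 2.20). NR1H4 did not pass without control 1 (adjusted p = 0.17, edgeR). RXRA, HNF4G, PPARA, PPARG, NFE2L2, KEAP1 and VDR did not pass. Of these, HNF4G passed without control 1 (log2 fold change -0.68, adjusted p = 0.044), PPARA without control 2 (0.32, adjusted p = 0.020) and NFE2L2 with no filter on low counts (0.21, adjusted p = 0.0496, all edgeR). NR1I2, the main receptor that induces CYP3A genes, was at 0.897, 0.758 and 0.786 CPM in Caco-2-line cells of control 1, control 2 and LPS. It had 0 UMIs in the HT29 line and was too low to be tested. A floor of 3 counts in the HT29 line is 0.746, 0.717 and 0.864 CPM, so the 0 in a single library does not show a lower level. The part of this receptor in the level of CYP3A5 was not tested.

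In ECLC, 44 of the 69 other enzymes tested were higher and 16 lower, against 32.2% and 31.7% of all genes tested. Their median log2 fold change was 0.88 against -0.01 over all genes. UGT2B17 was the most raised of them, at 38.2, 10.8 and 34.8 CPM in ECLC from 178, 33 and 87 UMIs, with 3, 0 and 1 UMIs in ISCLC and TALC. It was 114-fold higher in control 1 (95% counting interval 38.4 to 559), at least 26.0-fold in control 2, and 214-fold in LPS (37.4 to 8538). SULT1B1 (log2 fold change 5.69 ± 0.20, adjusted p = 2.5e-26) and UGT2B10 (4.68 ± 0.53, adjusted p = 4.7e-10) followed. All 10 genes of the sulfotransferase list that were tested passed, 8 higher and 2 lower. So did all 5 of the glucuronosyltransferase list, 4 higher and 1 lower. Of all genes tested 63.9% passed, so passing is not particular to these lists. AKR1B1 (-3.38 ± 0.35), GSTT2B (-2.30 ± 0.31), ADH6 (-2.24 ± 0.25), ALDH1B1 (-1.90 ± 0.28) and GSTM3 (-1.47 ± 0.15) fell most in ECLC, each past the threshold.

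Of 15 regulators tested in ECLC, 9 were higher and 3 lower, against 32.2% and 31.7% of all genes tested, with a median log2 fold change of 1.00 against -0.01 over all genes. NR1H4 (4.54 ± 0.28) and NR1I3 (4.22 ± 0.20) were raised most, and PPARA (1.81 ± 0.10), HNF4A (1.56 ± 0.07), CDX2 (1.52 ± 0.08), PPARG (1.29 ± 0.09), HNF4G (1.01 ± 0.28) and RXRA (1.00 ± 0.09) less. KEAP1 (-0.76 ± 0.18), AHR (-0.51 ± 0.15) and NFE2L2 (-0.29 ± 0.08) were lower. AHR did not pass with DESeq2 (adjusted p = 0.072), without the LPS library (0.080, edgeR) or with clusters from log-normalized values (0.26), and KEAP1 did not with cells ranked by enterocyte markers (0.22). VDR did not pass, ARNT passed only with clusters from log-normalized values (log2 fold change 0.48, adjusted p = 0.0047), and AHRR and NR1I2 were too low to be tested. Of the aryl hydrocarbon receptor targets, 4 could be tested and NQO1 passed, lower in ECLC by a log2 fold change of -0.87 ± 0.08 (adjusted p = 1.2e-12), while CYP1A1, TIPARP and ALDH3A1 did not pass. With cells ranked by enterocyte markers ALDH3A1 passed (0.82, adjusted p = 0.0071, edgeR).

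LPS was compared with the controls last, with 1 treated library and 1 residual degree of freedom, so that the LPS library is assumed to vary as the controls do. No member passed in all cells, in Caco-2-line cells or in HT29-line cells, where 0.0558%, 0.0967% and 0.215% of genes passed with edgeR. Of all genes, 0.0434%, 0.0193% and 0.182% were called higher with LPS in these comparisons and 0.0124%, 0.0773% and 0.0331% lower. At an unadjusted p of 0.05, GSTA1 passed in all cells, and GSTA1 and GSTP1 in Caco-2-line cells, and none did in HT29-line cells. DESeq2 called 0 members in each. GSTA1 in Caco-2-line cells was lower in the LPS library, 40.3 CPM, than in either control, 44.5 and 89.4, but the controls differed more from each other than control 2 did from LPS. Its log2 fold change was -0.82 ± 0.24 (adjusted p = 0.48 with edgeR). It was -0.20 without control 1 and -1.26 without control 2, and with no filter on low counts its adjusted p was 0.000101. In HT29-line cells GSTA1 rested on 9, 10 and 15 UMIs. GSTP1 in Caco-2-line cells was at 2341 CPM in control 1, 1893 in control 2 and 1721 in the LPS library, the same order as the depth of the libraries (log2 fold change -0.38 ± 0.18, adjusted p = 0.69), and depth and treatment cannot be told apart here.

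In Caco-2-line cells the LPS value lay above both controls for 5 members and below both for 2 of the 9 members at 1 CPM or more, while 74.2% of all genes at that level lay outside the controls. In HT29-line cells it was 3 above and 1 below, with 64% of all genes outside, and over all cells 4 above and 2 below, with 72.7% outside. CYP3A5 in HT29-line cells was at 209 CPM with LPS against 271 and 212 (log2 fold change -0.27 ± 0.24, adjusted p = 1.00). The difference between the lines in their response to LPS passed for none of the members, against 0.0713% of the 14030 genes, with an unadjusted p of 0.0051 for GSTA1 and 0.019 for CYP3A5 (adjusted p = 0.85 and 1.00, edgeR). No regulator and no other enzyme of the lists passed in any of the 3 LPS comparisons.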

How the data were processed

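The deposited files held raw UMI counts per gene and cell barcode, which the authors made with Cell Ranger (3.1.0 in the matrix header). Cells with at least 2250 UMIs and 770 genes (control 1) or 1500 UMIs and 700 genes (control 2, LPS) and at most 20% mitochondrial UMIs were kept. The automatic Scrublet threshold marked 0, 0 and 1 cells, so the 6% with the highest scores were removed as doublets. Cells were integrated with SCTransform (sctransform 0.4.2, Seurat 5.3.0) without the 160 genes of the enzyme and regulator lists, and clustered by Leiden (resolution 0.5, and 0.4 within the clusters of HT29-line cells, scanpy 1.11.5). A cluster was named when at least 3 fixed markers were raised with a mean log2 fold of 1 or more, a threshold set after the clusters were seen. A cell was given a line when the posterior of a Gaussian mixture on its line score reached 0.95.

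UMI counts were summed per group and library and tested with edgeR's quasi-likelihood test (edgeR 4.0.16, R 4.3.3, TMM scaling, filterByExpr, Benjamini-Hochberg adjustment over all genes tested), with DESeq2 1.42.0 as an alternative. The lines, and the Caco-2-line classes, shared a Transwell and a library, so the library was a block. The labels do not say whether the libraries come from separate cultures, so p-values measure the spread between these samples, which may be technical. In simulated counts for the comparison of lines, over 13696 genes, 88.5% of 2-fold and 100% of 4-fold changes were recovered, in those for ECLC, over 12183 genes, 84.5% and 98.0%, and in those for LPS in all cells, over 15817 genes, 73% and 87.9%. False calls were 5.67%, 5.82% and 5.33% of the calls. The simulations changed only 96 to 100 genes per fold size, far fewer than were called between the lines and in ECLC. These rates may therefore not carry over to the data. Genes were named by rule: the 10 members, up to 5 other listed genes per direction with the largest change past an adjusted p of 0.05, the regulators and aryl hydrocarbon receptor targets in full, and the 3 genes most like each member with 100 or more UMIs per library. The members and lists were chosen with earlier results of these data known. Results for some listed genes are not reported here.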

Additional observations from a re-analysis of the deposited data

How the results depend on the processing

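Of the 10 members, 8 were higher in the Caco-2 line under every alternative but DESeq2, which called 7. The 2 called higher in the HT29 line became 1 with DESeq2 and 1 to 2 when each library was left out. The count of members lower in ECLC was 0, and 1 with clusters from log-normalized values, 1 with cells ranked by enterocyte markers, and 0 to 1 when each library was left out. The cause was not tested. The fold change of CYP1A1 in ECLC ranged from -0.72 to 0.18 over the left-out libraries, that of RXRA between the lines from -0.14 to 0.13, and that of PPARG from -0.017 to 0.12. Reversed values were 0.033 for RXRA between the lines with no filter on low counts, -0.19 for GSTP1 and -0.038 for VDR in ECLC with clusters from log-normalized values, and -0.048 for ARNT and -0.33 for TIPARP in ECLC with cells ranked by enterocyte markers. None of the other fold changes of members in the line and ECLC comparisons reversed.

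In the LPS comparisons, the 9 genes called in all cells became 49 with no filter on low counts and 14 with the cell minima of control 1 in every library. The 15 called in Caco-2-line cells became 4 with DESeq2, 62 with no filter, 2 with no doublets removed and 0 with the minima of control 1 in every library (840 at an unadjusted p of 0.05, edgeR). The 26 called in HT29-line cells became 4 with DESeq2 and 11 with no doublets removed. Members lower with LPS went from 0 to 1, GSTA1, with no filter, in all cells and in Caco-2-line cells.

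Without the library as a replicate block, 9812 genes were called between the lines (10257 with it) and 7040 in ECLC (7927 with it), and no call of a member changed. No paired analysis was possible for LPS because the groups share only replicate number 1. Few UMIs limited the precision of UGT1A6 (61 in all, with reads shared across its locus) and of the HT29-line levels of CYP1A1 and SULT1E1.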
